A study of Mus musculus with 26 samples.

Results

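The change of the mammary gland between mid-pregnancy and established lactation was described in 1 inbred mouse strain, CBA/CaH. The comparison set 3 arrays of lactation day 9 against 5 arrays of pregnancy day 12, which are 8 of the 26 arrays of the study, chosen by the strain and stage in the sample titles. All 45037 probe sets other than the 64 Affymetrix controls were tested. Each array held total RNA of the inguinal gland of a mouse. Lactating and pregnant CBA/CaH mice were both sampled without any label of treatment or mutation, and neither age, litter size nor parity is given in the labels used here. The other arrays came from the strain QSi5 at both stages (3 of lactation and 5 of pregnancy) and from 10 lactating mice of an Advanced Intercross Line (AIL) of these strains. QSi5 was used to estimate the spread and to test where the CBA/CaH change differed. The labels do not say whether mice shared litters or cages, so p-values measure the spread between these arrays.

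In pregnancy the mammary epithelium divides and builds alveoli within a pad of fat, under progesterone, prolactin and local signals such as Wnt proteins and the ligand RANKL. After birth the alveolar cells close their junctions and secrete milk protein, fat globules, lactose and minerals, a programme driven in large part by prolactin through the transcription factor STAT5. Fat is thinned out, and antibody-producing cells settle in the gland. The labelled tissue was checked against the beta-casein gene Csn2, which read between 14.71 and 14.96 on all 8 arrays, and the luminal keratin gene Krt8, which read 10.20 to 11.15 on lactation arrays and 12.48 to 12.77 on pregnancy arrays.

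The first principal component held 73.4% of the variance over the 8 arrays and separated the stages. The second held 8.12% and set pregnancy array 4 apart from pregnancy array 5. Brown adipocyte markers had, relative to their mean over the 26 arrays, a median of 2.11 log2 units on pregnancy array 5, against -0.97 to 0.57 on the other pregnancy arrays and -0.60 to 0.03 on the lactation arrays. White adipocyte markers were at -1.09 on pregnancy array 2, where the other pregnancy arrays had 0.84 to 1.86. Matrix genes were at 1.67 on pregnancy array 4 and between -0.35 and 0.49 on the other 4. The 3' minus 5' value of Gapdh, a measure of RNA and labelling quality, was 1.12 to 2.02 on lactation arrays and 0.89 to 2.86 on pregnancy arrays, lowest on pregnancy array 4. Acute phase and involution genes had a median of 1.11 on lactation array 1, against -0.32 and -0.36 on the other lactation arrays. Among the QSi5 arrays, which share the fit, pregnancy array 4 had a Gapdh value of 6.50. QSi5 pregnancy arrays 3 and 5 had skeletal muscle medians of 5.55 and 1.09. QSi5 lactation array 2 had a plasma and B cell median of 1.62. These QSi5 arrays and CBA/CaH pregnancy array 5 are the arrays of the fit that are said below to stand apart. The part of these differences in the results was not tested.

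As deposited, a majority of the array was called changed. Of the 45037 probe sets, 23849 differed between the stages at an adjusted p under 0.05 (limma, Benjamini-Hochberg), or 53.0%. There were 14546 higher at lactation (32.3%) and 9303 lower (20.7%). The majority was lost under some other settings described below. Not called were 26141 probe sets after quantile normalization, 24823 with array medians set equal and 25809 without lactation array 3. With 1 probe set per gene, 5539 of 18193 genes were higher (30.4%) and 5373 lower (29.5%), 60.0% in all, and the 3 lactation values lay wholly outside the 5 pregnancy values in 10646 genes (58.5%). As deposited, the changes that fell were larger, with a median of -1.18 log2 units over the lower genes and 0.68 over the higher ones. Sizes were taken from the deposited values only. A change of at least 1 log2 unit was found in 3373 lower and 954 higher genes, and one of at least 3 in 175 lower and 47 higher genes.

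The balance of directions depended on the level of the probe set. Values spread over a narrower range at lactation, where the 5th percentile of an array was 3.22 to 3.25 and the 95th was 8.93 to 9.11, than at pregnancy, where they were 3.02 to 3.15 and 9.54 to 9.87. Among 20792 probe sets with a mean level under 5, 8296 were higher and 1075 lower. Among 4999 with a mean level between 8 and 11, 477 were higher and 2551 lower, with a median difference of -0.60. After a further quantile normalization of the 16 parental arrays these counts were 3417 and 1935 for dim probe sets and 1343 and 1232 for the 8 to 11 range. The median difference in the 8 to 11 range was then 0.03. The median difference of all probe sets was 0.17 as deposited, 0.09 after quantile normalization and 0.00 with array medians set equal, and that of all genes was 0.05, 0.10 and -0.12. The split of calls was 14546 higher to 9303 lower as deposited, 11137 to 7759 after quantile normalization and 9095 to 11119 with equal medians. Detection calls were not used here, so a low value cannot be told from background, and differences against it understate the change.

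**Figure D1:**
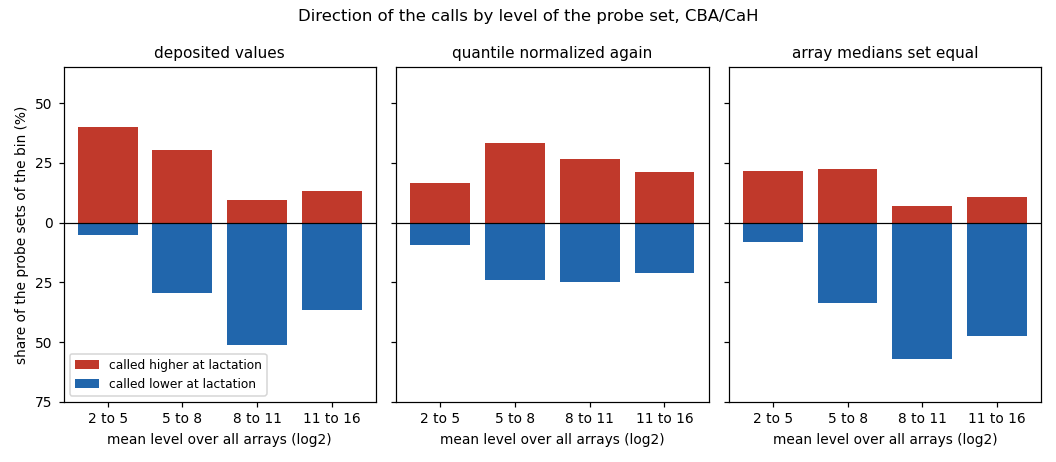
Share of probe sets called higher (red, upwards) or lower (blue, downwards) at lactation, by mean log2 level over all arrays, under 3 scalings. As deposited, 8296 of the 20792 probe sets below 5 were called higher and 1075 lower, while 2551 of the 4999 between 8 and 11 were called lower and 477 higher; a further quantile normalization gave 1343 higher and 1232 lower in that range.

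Among genes with several probe sets, 1544 of 9010 (17.1%) had probe sets called in both directions. Where that holds for a gene named here, the other value is given. Other probe sets without a call are given only for some genes. Gene groups are described for 40 lists with 740 measured genes, by the number of members called and the median difference. They are to be read against 30.4% higher, 29.5% lower and a median of 0.05 over all genes. These shares depended on level. Of 3403 genes with a mean level of 8 to 11, 1790 were lower and 321 higher (median -0.61). Of 5289 genes under 5, 276 were lower and 2504 higher (median 0.36). The lists were not matched for level, so a list of bright genes can be mostly lower for that reason alone.

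Csn1s2b, a casein gene with the highest difference of all called genes, read 14.70, 14.75 and 14.74 on the lactation arrays, against 5.13, 6.81, 4.88, 5.64 and 4.49 on the pregnancy arrays. The lactation values were near the ceiling of the scale, so its difference of 9.34 log2 units (SE 0.46, adjusted p = 2.58e-09) may be a lower bound. Atp2b2, the plasma membrane pump that exports calcium into milk, read 9.07, 10.28 and 10.55 at lactation, against 3.88, 4.40, 3.65, 3.39 and 4.18 at pregnancy. It was 67.0-fold higher (6.07, SE 0.32, adjusted p = 4.98e-09), with the lowest lactation array far above every pregnancy array. Egf, a growth factor that is also secreted into milk, read 9.68, 10.05 and 9.85 at lactation, against 4.98, 5.58, 4.61, 4.80 and 4.54 at pregnancy, a 31.0-fold difference (4.95, SE 0.23, adjusted p = 1.70e-09). Ccl28, the chemokine that draws IgA-producing plasma cells to the gland, was 33.6-fold higher (5.07, SE 0.24). Cel, a lipase of milk, was 29.0-fold higher (4.86, SE 0.56). Slc39a8, an importer of zinc and manganese, was 29.8-fold higher (4.90, SE 0.28).

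Pip, which encodes a secreted protein of exocrine glands, read 8.84, 10.71 and 9.69 on lactation arrays and 3.92 to 4.19 on the 5 pregnancy arrays. The gene was thus near the dim end of the scale throughout pregnancy, and 52.1-fold higher at lactation (5.70, SE 0.30, adjusted p = 4.98e-09). Wfdc3, a gene of the whey acidic protein domain family, read 13.26, 13.21 and 13.36 at lactation and 7.79 to 9.37 at pregnancy. Gpaa1, a subunit of the enzyme that attaches GPI anchors to proteins, read 12.68, 12.81 and 12.94 at lactation, against 7.31 to 8.35 at pregnancy. Isg20, a nuclease gene induced by interferon in other settings, read 10.43, 11.23 and 10.91 at lactation and 5.69 to 6.37 at pregnancy. These 3 genes were 27.4-fold, 28.9-fold and 28.2-fold higher, with no overlap between the stages. The other Gpaa1 probe sets, dimmer with a mean of up to 8.42, differed by only 0.70 and -0.19. Stxbp5l, which encodes a syntaxin-binding protein, was at 6.11 to 6.27 on every pregnancy array and spread over 11.59, 10.42 and 9.39 at lactation (4.28, SE 0.32, adjusted p = 1.02e-07).

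Rspo1, which encodes a secreted R-spondin that strengthens Wnt signals in the gland, read 3.67, 4.21 and 4.34 on the lactation arrays, against 11.01, 11.25, 10.71, 11.23 and 10.44 on the pregnancy arrays. It was 116-fold lower (-6.86, SE 0.28, adjusted p = 5.49e-10), with no lactation array within 6 log2 units of a pregnancy array. Phlda1, a pleckstrin homology protein induced by growth factors, read 7.65, 6.86 and 5.99 at lactation, against 12.84, 12.95, 12.81, 12.43 and 12.57 at pregnancy, and was 59.2-fold lower (-5.89, SE 0.27). Bex1, an X-linked gene known from neurons, read 3.66, 4.00 and 3.42 at lactation and 8.88 to 10.37 at pregnancy (-5.81, SE 0.30). Armcx4, an armadillo repeat gene also on the X chromosome, read 3.70, 3.74 and 3.39 at lactation and 8.79 to 9.66 at pregnancy (-5.67, SE 0.32). Both X-linked genes were at the dim end of the scale on all lactation arrays.

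Anpep, a membrane aminopeptidase, was 36.1-fold lower at lactation (-5.17, SE 0.45), and Ly6e, a GPI-anchored membrane protein, was 34.4-fold lower (-5.10, SE 0.35). Nfkbie, an inhibitor of NF-kappa B, read 3.59, 3.59 and 3.53 at lactation and 8.17 to 9.11 at pregnancy. Ubd, a ubiquitin-like protein induced by inflammatory cytokines, read 4.30, 4.67 and 4.53 at lactation and 7.84 to 10.24 at pregnancy. Both fell without overlap, by 5.00 (SE 0.45) and by 4.77 (SE 0.62). For 3 other genes of this rank the probe sets disagreed. The brightest probe set of BC006965 differed by -6.00, that of Incenp, a subunit of the chromosomal passenger complex, by -5.61 and that of Rcn1, a calcium-binding protein of the endoplasmic reticulum, by -4.89, while a dimmer probe set of each was called higher, with differences of up to 0.38, 0.59 and 1.38.

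**Figure D2:**
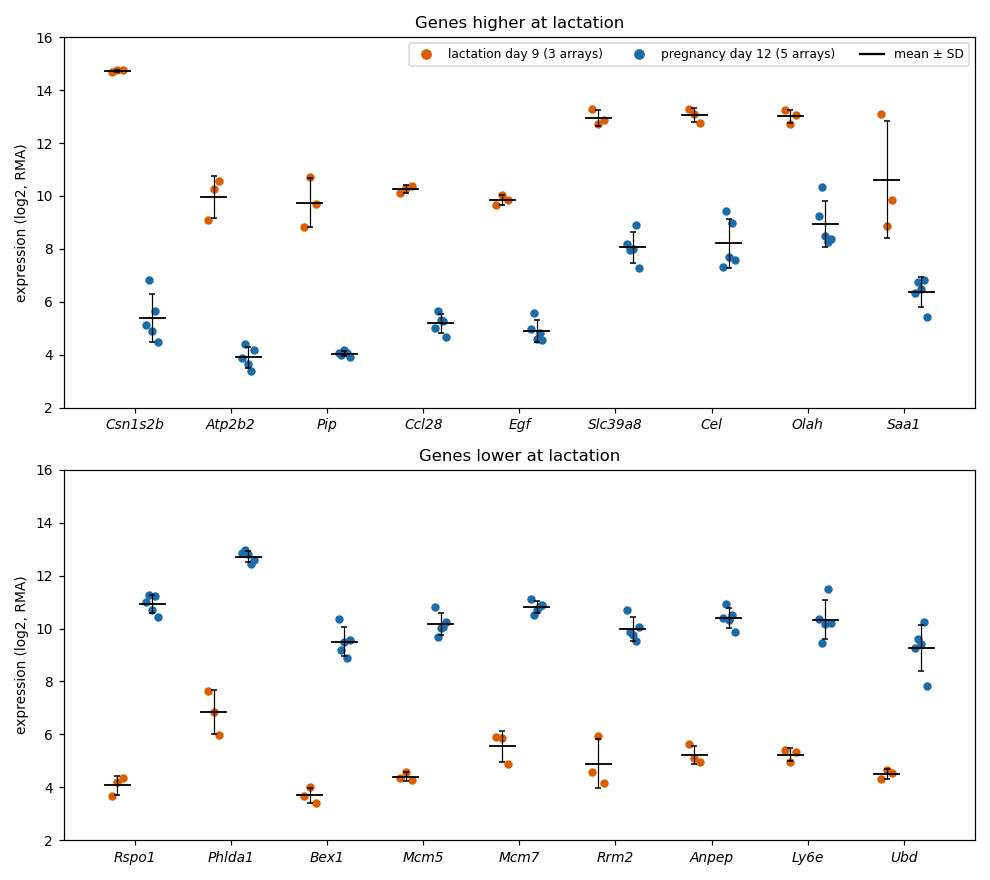
Values of 18 genes on each CBA/CaH array (log2, RMA), lactation arrays in orange at the left of each pair and pregnancy arrays in blue at the right, with mean and SD. The upper genes were higher on every lactation array, by 4.06 (Olah) to 9.34 (Csn1s2b), with the lactation arrays of Saa1 spread from 8.88 to 13.10; the lower genes were lower on every lactation array, by up to 6.86 (Rspo1).

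Milk protein genes rose or were already near the top of the scale. Of 12 measured genes 7 were higher, none was lower and 5 were not called, with a median difference of 1.72. In these bulk samples, more cells of a type and more RNA per cell cannot be told apart, here and in every group below. Ltf, the iron-binding milk protein lactoferrin, read 13.60, 12.17 and 12.45 at lactation, against 8.60, 9.26, 8.60, 9.32 and 8.50 at pregnancy, and was 14.7-fold higher (3.88, SE 0.37, adjusted p = 1.20e-06). Lpo, the antimicrobial lactoperoxidase, was 8.76-fold higher (3.13, SE 0.17). Wap, the whey acidic protein, read 15.08 to 15.11 at lactation, against 10.75, 13.67, 11.59, 12.74 and 11.65 at pregnancy. Its difference of 3.01 (SE 0.58) is a lower bound, and pregnancy array 2 came closest to the lactation arrays.

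Several caseins could not be compared. Csn2 read 14.81 to 14.86 at lactation and 14.71 to 14.96 at pregnancy, Csn1s1 (alpha-S1-casein) 14.61 to 14.62 and 13.99 to 14.51, and Csn1s2a 14.72 to 14.80 and 14.12 to 14.66, all close to the top of the scale at both stages. Csn3, which encodes kappa-casein, read 14.96 to 14.98 at lactation, against 14.06, 14.50, 14.30, 14.65 and 14.05 at pregnancy. It missed the threshold (0.66, SE 0.31, adjusted p = 0.0808), although the stages did not overlap, and was called under 6 alternatives, such as the fit of the 8 CBA/CaH arrays alone (adjusted p = 0.00625). A dimmer Csn3 probe set was higher by 1.99.

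STAT5 binds motifs of the form TTCNNNGAA, and such a motif stood in the 250 bases before the start of 3 of 10 milk protein genes with a promoter sequence (Csn1s1, Csn2 and Glycam1, or 30.0%), in 0 of 7 milk fat globule genes and in 2197 of all 27018 promoters (8.13%). The motif reads the same on both strands. The promoters of Csn2 and Csn1s1 are shown because they carry it, with the match in capitals (RefSeq, GRCm38.p6, 5′ to 3′ on the strand of the gene). Csn2 lies on the minus strand at chr5:87699426-87699675, with the match starting 93 bases before the start, and Csn1s1 on the plus strand at chr5:87665958-87666207, with the match starting 100 bases before it.
Csn2: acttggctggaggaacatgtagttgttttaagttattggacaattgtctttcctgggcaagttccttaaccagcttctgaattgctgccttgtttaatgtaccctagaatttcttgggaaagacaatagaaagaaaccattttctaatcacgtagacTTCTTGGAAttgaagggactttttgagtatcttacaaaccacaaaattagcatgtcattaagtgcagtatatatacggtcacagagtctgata
Csn1s1: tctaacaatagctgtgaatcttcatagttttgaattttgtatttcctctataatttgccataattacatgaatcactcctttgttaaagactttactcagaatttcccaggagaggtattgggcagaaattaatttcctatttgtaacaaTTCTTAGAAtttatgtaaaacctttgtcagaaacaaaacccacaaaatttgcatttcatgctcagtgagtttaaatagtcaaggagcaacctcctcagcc
A match describes these letters only and is not a measured binding site. Of the 3 genes that hold it, Glycam1, a mucin-like milk protein, was higher (0.92, SE 0.29), and both caseins were at the top of the scale throughout.

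Genes of the milk fat globule rose. Of 12 genes 9 were higher, 1 was lower and 2 were not called, with a median difference of 1.52. Cidea, a lipid droplet protein that binds the globule coat, read 14.17, 14.29 and 14.27 at lactation, against 9.83, 8.46, 11.01, 8.69 and 12.88 at pregnancy (4.07, SE 0.68, adjusted p = 0.00020). Cidea is also a brown fat gene, and pregnancy array 5, which had the highest brown fat markers, was its highest pregnancy array. Abcg2, the pump that carries riboflavin and drugs into milk, was 10.3-fold higher (3.37, SE 0.31), Muc1, a membrane mucin, 7.64-fold (2.93, SE 0.21), and Xdh, the xanthine dehydrogenase of the globule coat, 7.01-fold (2.81, SE 0.38). Fabp3, a fatty acid carrier, read 13.98, 14.24 and 14.35 at lactation and 11.43, 13.31, 11.64, 11.80 and 11.71 at pregnancy, with pregnancy array 2 far above the rest (2.21, SE 0.60, adjusted p = 0.00653). Plin2, which coats the droplets, was the member that fell (-0.54, SE 0.15, adjusted p = 0.00723), with lactation array 1 within the range of pregnancy and no call after quantile normalization or without lactation array 2.

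Of 17 fatty acid synthesis genes 7 were higher, 1 was lower and 9 were not called, with a median difference of 0.72 (0.40 without pregnancy array 2). After quantile normalization 9 were higher and none lower (median 1.27). Olah, the thioesterase that ends synthesis at medium chain length, read 13.24, 12.73 and 13.05 at lactation, against 9.26, 10.33, 8.47, 8.28 and 8.38 at pregnancy, and was 16.7-fold higher (4.06, SE 0.52, adjusted p = 1.87e-05). Elovl5, a chain elongase, rose by 1.86 (SE 0.28) and Fads1, a desaturase of polyunsaturated fatty acids, by 1.39 (SE 0.31). Fasn, the fatty acid synthase, read 11.85, 12.88 and 12.98 at lactation, against 12.47, 12.28, 12.70, 12.35 and 14.04 at pregnancy, so that the stages overlapped (-0.20, SE 0.36, adjusted p = 0.659). Scd1, the main stearoyl desaturase, differed by -0.41 (SE 0.34, adjusted p = 0.327), with a second probe set higher by 1.16. Pregnancy array 5 had the highest value of Fasn, Scd1 and Elovl5 among the pregnancy arrays. Without the arrays that stood apart, array 5 among them, 11 of the 17 genes were higher and 1 lower.

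Triglyceride assembly genes went mostly the other way as deposited. Of 19 genes 5 were higher and 10 lower (median -0.55), but 6 were higher and 3 lower after quantile normalization (median 0.11), so the list has no direction that holds under both scalings. Acsl3, a long-chain acyl-CoA synthetase, read 4.60, 4.80 and 5.09 at lactation, against 8.95, 8.17, 8.22, 8.71 and 8.76 at pregnancy, and was 13.3-fold lower (-3.73, SE 0.24, adjusted p = 2.86e-08). Slc27a3, a fatty acid transport protein, went up 5.07-fold (2.34, SE 0.30). Acsl5 and Agpat3, an acyltransferase of phospholipid and triglyceride assembly, were lower by 3.12-fold and 3.04-fold.

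Enzymes that make NADPH, the reductant of fat synthesis, were lower as a group. Of 9 genes 8 were lower and 1 was higher (median -1.11), or 4 and 1 after quantile normalization (median -0.51). The cytosolic isocitrate dehydrogenase Idh1 read 7.87, 7.85 and 7.73 at lactation, against 10.12, 9.40, 10.17, 10.33 and 11.04 at pregnancy (-2.40, SE 0.29, adjusted p = 9.91e-06). Its mitochondrial counterpart Idh2 differed by -1.98 (SE 0.17), with a dim probe set higher by 0.53. In the pentose phosphate pathway, the lactonase Pgls was 2.80-fold lower and the transketolase Tkt 2.15-fold lower. Malic enzyme Me1 was the member that rose (0.92, SE 0.34, adjusted p = 0.0322), with overlap between the stages and no call without pregnancy array 2 or 4 or any 1 lactation array (adjusted p up to 0.0973). Pregnancy array 5 had the highest value of Idh1, Pgls, Tkt and Me1.

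Cholesterol synthesis genes rose in part, 8 of 18 being higher and 1 lower (median 0.59), 13 and 0 after quantile normalization, and 5 and 0 without lactation array 2. Fdps, which makes farnesyl diphosphate, read 9.12, 9.84 and 8.91 at lactation and 7.57, 7.25, 7.73, 8.36 and 7.75 at pregnancy (1.55, SE 0.45, adjusted p = 0.00885, and adjusted p = 0.0543 without lactation array 2). Ebp, a sterol isomerase, rose by 1.19 (SE 0.27) and Tm7sf2, a sterol reductase, by 1.34 (SE 0.32), while the synthase Hmgcs1 fell (-1.02, SE 0.30, not called after quantile normalization or without lactation array 2). Genes of glucose use and lactose synthesis had no common direction, with 3 of 12 higher and 3 lower (median 0.01), 6 and 2 after quantile normalization (median 0.61) and 2 and 4 with equal medians (median -0.16). Lalba, the regulatory subunit of lactose synthase, read 14.38 to 14.45 at lactation and 11.34 to 12.45 at pregnancy (2.53, SE 0.34, possibly a lower bound). Its catalytic partner B4galt1 overlapped between the stages (-0.39, SE 0.31, adjusted p = 0.305), as did the glucose transporter Slc2a1 (0.31, SE 0.32, adjusted p = 0.421, called at 0.94 after quantile normalization). Hexokinase Hk1 was 4.56-fold lower (-2.19, SE 0.16) and phosphoglucomutase Pgm1 2.60-fold lower, while Slc35a2, which carries UDP-galactose into the Golgi, was 2.39-fold higher.

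**Figure D3:**
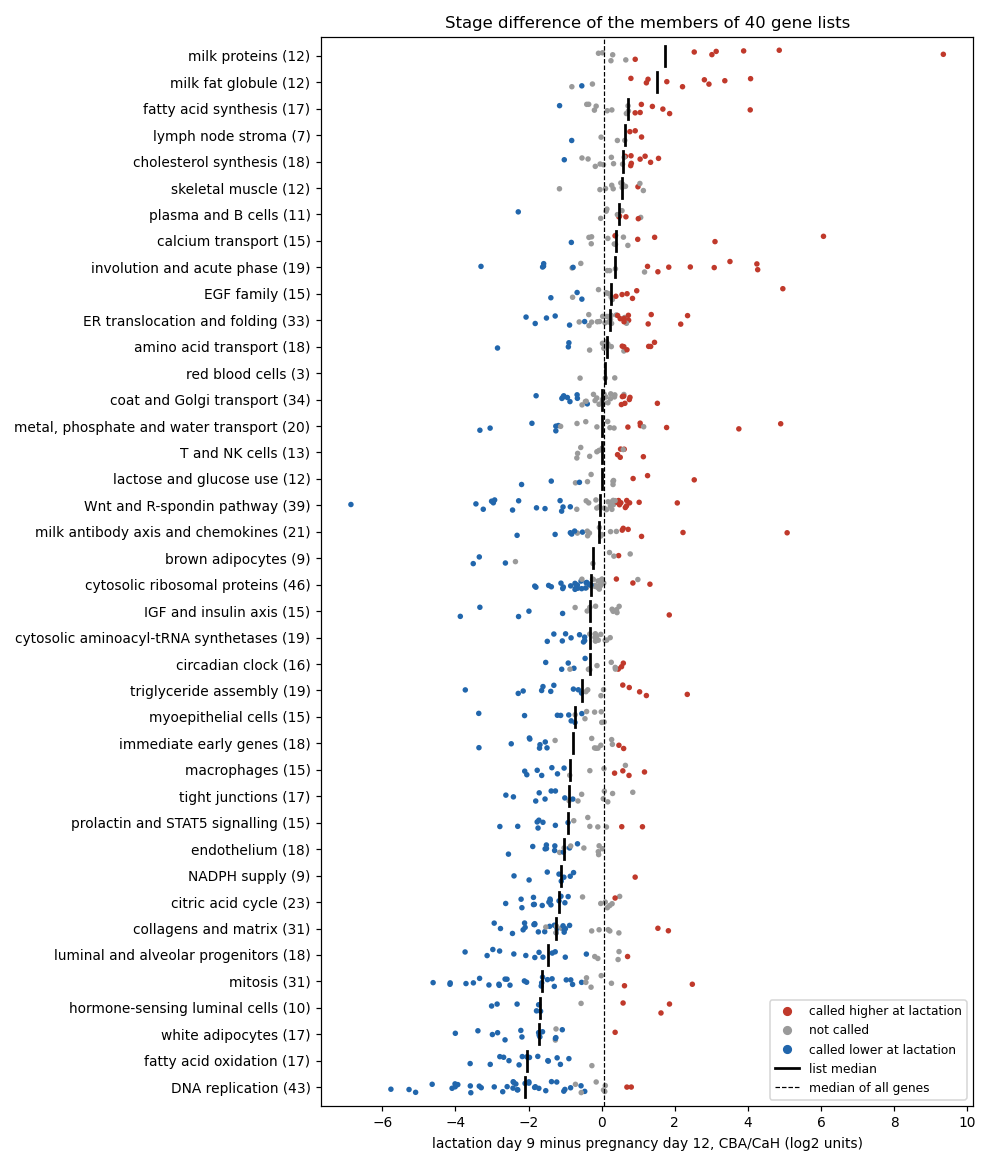
Difference between lactation and pregnancy (log2 units) of every measured member of 40 gene lists, with the number of members in brackets. Red and blue points were called higher and lower at lactation, grey points were not called, black bars are list medians and the dashed line is the median of all genes (0.05). Medians ran from -2.09 for DNA replication to 1.72 for milk proteins.

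Calcium transport genes were higher in 5 of 15 cases and lower in 1 (median 0.38). Beside Atp2b2, the Golgi calcium pump Atp2c2 read 10.18, 10.50 and 10.40 at lactation, against 6.74, 8.62, 6.97, 7.18 and 6.78 at pregnancy, and was 8.57-fold higher (3.10, SE 0.39). Orai1, the calcium entry channel, was 2.73-fold higher and Casr, the calcium-sensing receptor, 1.98-fold. Of 20 carriers of metals, phosphate and water, 6 were higher and 6 lower (median 0.02), near the 30.4% and 29.5% of all genes. The counts were 10 and 4 after quantile normalization (median 0.43) and 5 and 7 with equal medians (median -0.16). Slc34a2, the sodium-phosphate cotransporter of the secretory cell, was 13.5-fold higher (3.75, SE 0.31) and Slc30a2, a vesicular zinc exporter, 3.42-fold. Aqp5, a water channel, read 5.53, 5.79 and 5.83 at lactation, against 9.10, 8.87, 9.25, 9.39 and 8.63 at pregnancy, and was 10.1-fold lower (-3.33, SE 0.20). Slc39a4, a zinc importer, was 8.29-fold lower and the iron exporter Slc40a1 3.75-fold lower. The zinc importers Slc39a8 and Slc39a4 thus differed in opposite directions.

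Amino acid transporters were higher in 6 of 18 cases and lower in 3 (median 0.16), 9 and 1 after quantile normalization and 3 and 3 with equal medians (median -0.02), with medians of 0.10 to 0.31 when single arrays were left out. Slc7a2 and Slc7a7, carriers of cationic amino acids, were 2.53-fold and 2.44-fold higher, and Slc1a4, a carrier of small neutral amino acids, 2.72-fold. Slc1a5, which carries glutamine, read 5.84, 6.52 and 4.72 at lactation, against 8.70, 7.19, 8.59, 9.31 and 8.92 at pregnancy (-2.85, SE 0.43, adjusted p = 8.24e-05). The lowest pregnancy array of this gene was still above the highest lactation array.

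The machinery of protein synthesis and export gave counts that turned with the scaling. Of 33 genes of translocation and folding in the endoplasmic reticulum, 10 were higher and 6 lower as deposited, 21 and 3 after quantile normalization, and 5 and 7 with array medians set equal. Of 34 coat and Golgi transport genes, 7 were higher (3 without lactation array 2) and 9 lower as deposited, 17 and 2 after quantile normalization, and 3 and 11 with equal medians. Of 19 cytosolic aminoacyl-tRNA synthetases, none was higher and 9 lower as deposited (median -0.33, and -0.21 without pregnancy array 2), and 5 were higher and 4 lower after quantile normalization. None of these lists has a direction that holds under all 3 scalings. Single genes with large differences kept theirs. Ssr4, a subunit of the translocon-associated complex, read 13.43, 13.69 and 13.33 at lactation, against 10.85, 11.52, 10.80, 11.96 and 10.54 at pregnancy (2.35, SE 0.37). The lectin chaperone Canx read 8.92 to 9.06 at lactation and 10.94 to 11.12 at pregnancy (-2.07, SE 0.16, adjusted p = 2.12e-07). Kdelr3, a receptor that retrieves resident proteins to the endoplasmic reticulum, was 2.87-fold higher, the coat component Sec23a 3.47-fold lower and the synthetases Kars and Hars 2.80-fold and 2.48-fold lower. Cytosolic ribosomal protein genes were lower in 21 of 46 cases and higher in 3 (median -0.28, and 11 and 4 after quantile normalization). Rpl14 was 3.56-fold lower, Rps25 3.48-fold and Rpl13a 2.16-fold, while Rpl41 differed by 0.01 (SE 0.12).

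DNA replication had the lowest median of the 40 lists. Of 43 genes 35 were lower and 2 higher at lactation (median -2.09), with 32 lower after quantile normalization and 37 with equal medians. Mcm5, a subunit of the MCM helicase that unwinds DNA, read 4.34, 4.59 and 4.27 at lactation, against 10.82, 9.69, 10.01, 10.07 and 10.24 at pregnancy, and was 54.3-fold lower (-5.76, SE 0.27, adjusted p = 1.85e-09). The other helicase genes Mcm7, Mcm3 and Mcm6 were 38.5-fold, 24.9-fold and 16.1-fold lower, with 1 of 4 other Mcm3 probe sets higher by 0.59. Rrm2, the regulated subunit of ribonucleotide reductase, read 4.57, 5.95 and 4.16 at lactation, against 10.70, 9.87, 9.77, 9.53 and 10.04 at pregnancy (-5.09, SE 0.35). Cdt1, which loads the helicase at origins, read 6.13, 6.13 and 6.14 at lactation and 9.90 to 10.97 at pregnancy (-4.09, SE 0.27). In each of these genes the lowest pregnancy array was at least 3 log2 units above the highest lactation array.

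Mitosis genes were lower in 24 of 31 cases and higher in 2 (median -1.64). Cdc20, an activator of the anaphase-promoting complex, read 5.62, 5.66 and 5.59 at lactation, against 10.81, 10.19, 10.19, 9.56 and 10.40 at pregnancy, and was 24.4-fold lower (-4.61, SE 0.24). The survivin gene Birc5 was 17.7-fold lower, cyclin A2 (Ccna2) 13.1-fold and the proliferation antigen gene Mki67 6.97-fold (-2.80, SE 0.35). Top2a, the DNA topoisomerase of dividing cells, was 17.7-fold lower (-4.14, SE 0.25) at its brightest probe set, with a dim one higher by 0.40. The 4 members of the replication and mitosis lists that were called higher each had other probe sets called lower. Prim2, a primase subunit, gave 0.81 at its brightest probe set and -1.65 and -1.80 at the other 2. Orc1, of the origin recognition complex, gave 0.69 and -0.49. The cell cycle transcription factor Foxm1 gave 0.62 and down to -0.66, and Tpx2, a spindle assembly factor, gave 2.48 and down to -1.95. Foxm1 and Tpx2 each also had 1 further probe set called higher, that of Tpx2 by 2.01.

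E2F factors, which drive genes of S phase, bind motifs such as TTTGGCGC and TTTCCCGC. Searched on both strands, one of these stood in the 250 bases before the start of 7 of 35 replication genes with a promoter sequence (20.0%), in 0 of 25 mitosis genes and in 407 of all 27018 promoters (1.51%). The 7 genes are Orc3, Cdc6, Mcm5, Mcm6, Mcm7, Gins3 and Pola1. The promoters of Mcm5 and Mcm6 are shown as helicase genes that carry it, with matches in capitals (RefSeq, GRCm38.p6, 5′ to 3′ on the strand of the gene). Mcm5 lies on the plus strand at chr8:75109259-75109508 and has 1 match in reverse orientation, starting 149 bases before the start. Mcm6 lies on the minus strand at chr1:128359706-128359955 and has 2 matches, the first 110 bases before it.
Mcm5: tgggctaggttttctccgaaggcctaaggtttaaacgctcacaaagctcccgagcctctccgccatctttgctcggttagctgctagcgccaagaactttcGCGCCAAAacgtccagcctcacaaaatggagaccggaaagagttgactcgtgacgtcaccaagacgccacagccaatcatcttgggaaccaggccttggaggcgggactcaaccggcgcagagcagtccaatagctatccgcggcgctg
Mcm6: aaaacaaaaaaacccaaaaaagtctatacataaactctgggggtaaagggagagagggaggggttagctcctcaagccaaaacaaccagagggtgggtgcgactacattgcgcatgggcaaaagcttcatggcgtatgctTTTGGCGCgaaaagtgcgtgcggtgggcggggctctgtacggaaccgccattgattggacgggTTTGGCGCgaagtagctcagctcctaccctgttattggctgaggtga
Of the 7 genes with a match, Gins3, of the GINS complex, differed by 0.05 (SE 0.12, adjusted p = 0.727). The other 6 were lower, from -0.46 for Orc3 to -5.76 for Mcm5, where 35 of all 43 genes of the list were lower. Orc3 differed by 0.01 after quantile normalization (limma, adjusted p = 0.958). It was also not called without lactation array 1 (adjusted p = 0.0826) or with its probe sets averaged (adjusted p = 0.210). A match describes these letters only and is not a measured binding site. A dim Pola1 probe set was higher by 0.37.

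Markers of hormone-sensing luminal cells were lower in 6 of 10 cases and higher in 3 (median -1.70). Pgr, the progesterone receptor, read 4.30, 4.97 and 4.66 at lactation, against 7.84, 7.60, 7.07, 7.25 and 7.75 at pregnancy (-2.86, SE 0.32, adjusted p = 5.40e-06), with 2 dimmer probe sets higher by up to 0.61. Wnt4, a Wnt ligand that these cells make in response to progesterone, read 5.70, 5.64 and 6.02 at lactation, against 8.91, 9.05, 8.55, 8.56 and 8.92 at pregnancy, and was 8.06-fold lower (-3.01, SE 0.32). Foxa1, a cofactor of the oestrogen receptor, was 3.44-fold lower, and Cited1, a transcriptional coactivator, 3.30-fold. The transcription factor Tbx3 was 3.62-fold higher (1.85, SE 0.38) and the oestrogen-regulated gene Greb1 3.08-fold (1.62, SE 0.15). Esr1, the oestrogen receptor, read 8.53, 9.08 and 9.33 at lactation and 8.41, 7.93, 8.24, 8.69 and 8.71 at pregnancy. Its difference (0.59, SE 0.22, adjusted p = 0.0331) was lost with equal medians (adjusted p = 0.138) and without any 1 of 5 arrays (pregnancy 1, 2 and 3, lactation 2 and 3; adjusted p = 0.0507 to 0.178).

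Genes of luminal and alveolar progenitors were lower in 13 of 18 cases and higher in 1 (median -1.48). Id4, a regulator of basal and progenitor cells, was 13.3-fold lower (-3.74, SE 0.74). Kit, the stem cell factor receptor, read 7.08, 5.69 and 5.44 at lactation, against 9.46, 8.93, 9.46, 9.25 and 8.89 at pregnancy (-3.13, SE 0.53), and Notch1 was 7.87-fold lower (-2.98, SE 0.24). The keratin genes Krt19, Krt18 and Krt8 were 6.92-fold, 5.29-fold and 4.21-fold lower. In Krt8, Krt18, Krt19 and Kit lactation array 1 was the highest of the 3 lactation arrays. Elf5, the transcription factor of alveolar fate, read 12.26, 12.55 and 12.95 at lactation and 12.03 to 13.03 at pregnancy (-0.11, SE 0.36, adjusted p = 0.820), and its stages overlapped.

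Myoepithelial markers were lower in 8 of 15 cases and higher in none (median -0.72), but in 2 after quantile normalization and in 5 without lactation array 2 or without lactation array 3. Trp63, the basal transcription factor p63, was 10.3-fold lower (-3.36, SE 0.26) and Krt14, a basal keratin, 4.31-fold (-2.11, SE 0.22), and both had dimmer probe sets that were higher, by up to 0.47 and 0.88. Acta2, smooth muscle actin, read 13.13, 12.15 and 12.30 at lactation and 12.82 to 13.29 at pregnancy (-0.54, SE 0.22, adjusted p = 0.0474, not called under 9 alternatives), with lactation array 1 inside the range of pregnancy and a dim probe set higher by 0.43.

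Tight junction genes were lower in 9 of 17 cases and higher in none (median -0.89), or 6 and 3 after quantile normalization. Tjp3, a scaffold of the junction, read 7.45, 7.16 and 7.20 at lactation, against 9.89, 10.28, 9.56, 10.12 and 9.59 at pregnancy (-2.62, SE 0.16, adjusted p = 1.79e-08). Its relative Tjp1 was 3.49-fold lower and Marveld2, the tricellulin gene, 2.93-fold. Cldn1, a claudin, was 5.33-fold lower at its brightest probe set, with another higher by 0.40.

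In the Wnt and R-spondin pathway 14 of 39 genes were lower and 10 higher (median -0.06), beside 29.5% and 30.4% of all genes. The counts were 14 and 11 after quantile normalization (median 0.01) and 15 and 6 with equal medians, and 6 were higher without lactation array 2. Apart from Rspo1 and Wnt4, the secreted Wnt inhibitor Wif1 read 2.83, 3.00 and 2.87 at lactation, against 7.08, 5.87, 6.55, 7.50 and 4.68 at pregnancy (-3.44, SE 0.61). The ligand Wnt5b was 9.44-fold lower (-3.24, SE 0.25). The receptor genes Fzd3 and Fzd7 were 7.80-fold and 7.61-fold lower, each with dimmer probe sets higher by up to 0.84 and 0.65. Sfrp2, a secreted Wnt antagonist, was 4.19-fold higher (2.07, SE 0.46, adjusted p = 0.00183), and pregnancy array 4, at 7.85, overlapped the lactation arrays.

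In the EGF family 6 of 15 genes were higher and 3 lower (median 0.26, and 0.17 without pregnancy array 2), 4 and 2 after quantile normalization and 4 and 3 with equal medians (median 0.09). Beside Egf, the ligand Hbegf was 1.79-fold higher (0.84, SE 0.14), and the receptor Erbb2 read 6.73, 6.12 and 6.42 at lactation, against 8.13, 7.95, 7.77, 7.52 and 7.70 at pregnancy (-1.39, SE 0.16). Prolactin and STAT5 signalling genes were lower in 8 of 15 cases and higher in 2 (median -0.92, or -0.25 with 6 lower and 2 higher after quantile normalization). Stat5a, the main mammary STAT5 gene, read 8.74, 9.83 and 9.54 at lactation and 10.16, 10.77, 9.66, 10.08 and 9.99 at pregnancy (-0.76, SE 0.34, adjusted p = 0.0672). It missed the threshold here but was called under 10 alternatives, and a second probe set was lower by 2.65. Stat5b was 3.40-fold lower (-1.76, SE 0.27), with a second probe set of similar level higher by 0.42. Id2, an inhibitor of helix-loop-helix factors, was 6.89-fold lower (-2.78, SE 0.30), Cebpb, a transcription factor of alveolar growth, 4.91-fold (-2.30, SE 0.23) and the kinase Akt2 3.34-fold. Socs3 and Socs1, which encode inhibitors of cytokine signalling, were higher by 1.11 and 0.55, Socs3 most on lactation array 1, and Socs1 was not called without lactation array 1 or 2.

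In the IGF axis 5 of 15 genes were lower and 1 higher (median -0.32), and 4 and 4 after quantile normalization (median 0.09). The median was -0.07 without pregnancy array 4 and -0.19 without pregnancy array 1. Igfbp5, an IGF binding protein known from involution, read 11.31, 7.12 and 8.10 at lactation, against 13.14, 12.14, 12.97, 13.38 and 11.91 at pregnancy (-3.87, SE 0.69, adjusted p = 0.000334). Lactation array 1 was thus over 3 log2 units above the other lactation arrays and still below every pregnancy array. A second, dimmer Igfbp5 probe set (mean 7.85, against 9.88) differed by 0.13 and was not called. The binding proteins Igfbp4 and Igfbp3 were 10.1-fold and 4.83-fold lower, and Igf2r, a receptor that clears IGF2, was 3.60-fold higher (1.85, SE 0.37).

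Collagens and other matrix genes were lower in 20 of 31 cases and higher in 2 (median -1.24, and 11 lower and 3 higher after quantile normalization). The basement membrane collagen Col4a1 read 8.44, 7.95 and 7.97 at lactation, against 10.92, 10.06, 11.16, 11.58 and 10.72 at pregnancy, and was 6.81-fold lower (-2.77, SE 0.26, adjusted p = 1.25e-06). Lum, a collagen-binding proteoglycan, was 7.67-fold lower, the matrix protease Mmp2 4.31-fold and the fibroblast receptor Pdgfra 4.43-fold, with a dim Pdgfra probe set higher by 0.67. In Col4a1, Lum, Mmp2 and Pdgfra pregnancy array 4 was the highest and pregnancy array 2 the lowest of the pregnancy arrays. Timp2 and Timp1, which encode inhibitors of matrix proteases, were 3.54-fold and 2.90-fold higher, Timp2 not when all its probe sets were averaged (adjusted p = 0.308).

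White adipocyte genes were lower in 14 of 17 cases and higher in 1 (median -1.71), but in 7 and none after quantile normalization and in 8 and 1 without lactation array 3. Cebpa, a transcription factor of fat cells, read 7.42, 7.88 and 6.94 at lactation, against 10.27, 9.86, 10.36, 10.80 and 10.71 at pregnancy (-2.99, SE 0.22, adjusted p = 1.07e-07). Pck1, an enzyme of glycerol synthesis in fat, read 5.38, 5.87 and 4.88 at lactation, against 9.95, 5.77, 9.62, 10.75 and 10.82 at pregnancy (SE of the difference 0.84), and Cidec, a droplet protein of fat cells, 5.61, 6.15 and 5.08 at lactation, against 9.15, 5.71, 9.48, 10.44 and 10.21 at pregnancy (-3.38, SE 0.76). In both genes pregnancy array 2 lay among the lactation arrays. The hormone gene Adipoq fell by 2.18 (SE 0.72, adjusted p = 0.0186) and was not called after quantile normalization, with the replicate block or without lactation array 1 or 3 (adjusted p = 0.0636 to 0.0897). Of 9 brown adipocyte genes 3 were lower and 1 higher (median -0.24), 2 lower and 3 higher without pregnancy array 5 (median 0.21) and none lower without lactation array 3. The median was -0.44 without pregnancy array 4 and -0.45 without pregnancy array 2. Ucp1, the uncoupling protein, read 4.79, 4.90 and 5.08 at lactation, against 8.13, 4.07, 10.79, 5.88 and 12.47 at pregnancy (-3.35, SE 1.34, adjusted p = 0.0460), a call lost under 10 alternatives, such as leaving out pregnancy array 5 (-2.30, adjusted p = 0.0919).

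Fatty acid oxidation genes were lower in 16 of 17 cases (median -2.03), and in 13 after quantile normalization. Acaa2, the thiolase of the mitochondrial cycle, read 8.12, 8.10 and 7.98 at lactation, against 10.23, 10.38, 10.72, 10.35 and 12.03 at pregnancy (-2.68, SE 0.30, adjusted p = 5.28e-06). Decr1, a reductase for unsaturated fatty acids, was 6.89-fold lower and Acadvl, the very-long-chain acyl-CoA dehydrogenase, 5.80-fold. Pregnancy array 5 had the highest value of these genes, and the other pregnancy arrays were all above the lactation arrays too. Citric acid cycle genes were lower in 15 of 23 cases and higher in 1 (median -1.17), or 11 and 4 after quantile normalization. Dlst, a subunit of the oxoglutarate dehydrogenase complex, was 4.61-fold lower, and the succinate dehydrogenase genes Sdha and Sdhc 3.64-fold and 3.58-fold, with 1 other Sdha probe set higher by 0.52. A second Sdhc probe set of similar level (mean 8.82, against 9.27) differed by -0.07 and was not called. The cytosolic malate dehydrogenase gene Mdh1 was the member called higher (0.37, SE 0.15, adjusted p = 0.0459), a call lost under 10 alternatives.

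Endothelial genes were lower in 10 of 18 cases and higher in none (median -1.04), or 7 and 2 after quantile normalization. Ets1, a transcription factor of vessels and lymphocytes, was 5.86-fold lower (-2.55, SE 0.50). Cdh5, the cadherin of endothelial junctions, read 5.88, 5.41 and 5.64 at lactation, against 7.25, 6.42, 7.31, 7.58 and 7.20 at pregnancy (-1.51, SE 0.24), and Tie1, a receptor of endothelium, was 2.85-fold lower. As in the matrix list, pregnancy array 4 was the highest and pregnancy array 2 the lowest for Cdh5 and Tie1.

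**Figure D4:**
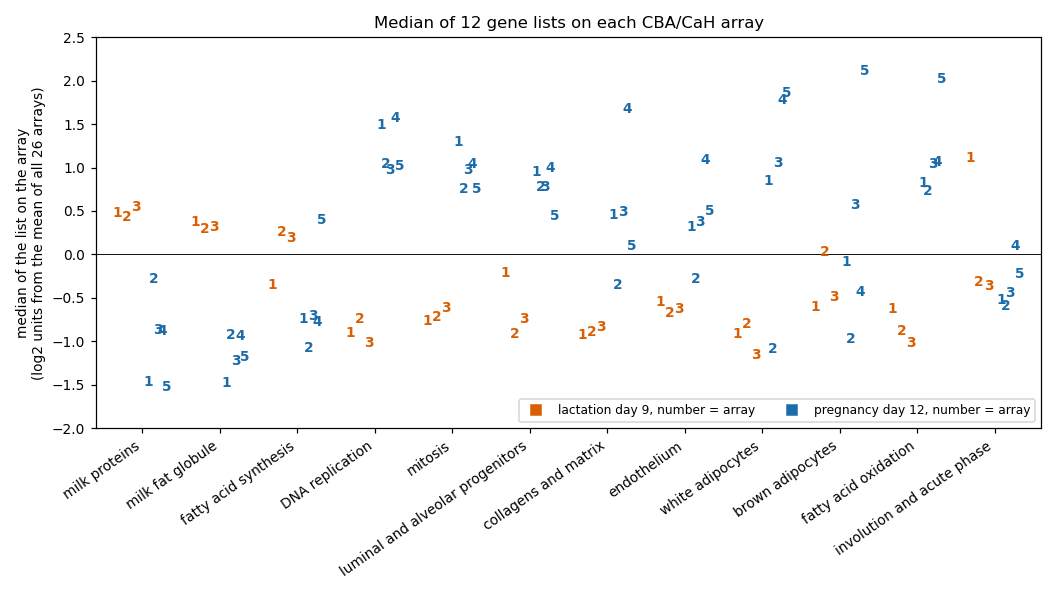
Median of 12 gene lists on each CBA/CaH array, in log2 units from the mean of all 26 arrays; each number is the array's replicate, orange at the left for lactation and blue at the right for pregnancy. Replication and mitosis separated the stages on every array, whereas pregnancy array 2 lay among the lactation arrays for white adipocytes (-1.09), pregnancy array 5 stood out for brown adipocytes (2.11) and lactation array 1 for acute phase genes (1.11).

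Immune cell markers changed in both directions. Macrophage genes were lower in 7 of 15 cases and higher in 4 (median -0.87), 4 and 4 after quantile normalization, 4 lower without lactation array 3 and 2 higher without lactation array 2 or pregnancy array 1. The median was -0.56 without pregnancy array 4. The mannose receptor Mrc1 was 4.30-fold lower (-2.10, SE 0.30), and Mertk, a receptor for dying cells, 3.39-fold. Of 11 plasma and B cell genes 4 were higher and 1 lower (median 0.47), but 1 was higher with equal medians, without pregnancy array 1 or without any 1 lactation array. The B cell kinase Blk read 4.84, 5.00 and 5.70 at lactation and 3.81 to 4.63 at pregnancy (1.00, SE 0.20), while the syndecan gene Sdc1, which epithelial cells also express, was 4.86-fold lower. Of 13 T and NK cell genes 5 were higher and none lower (median 0.02), but 2 and 2 with equal medians (median -0.16) and 3 higher without lactation array 1 or 3. Cd3e, of the T cell receptor complex, was 1.53-fold higher (0.62, SE 0.18). Of 21 genes of the milk antibody axis and chemokines 6 were higher and 6 lower (median -0.06), 6 and 3 after quantile normalization (median 0.13), and 2 or 3 lower without lactation array 2 or 3. Pigr, the receptor that carries IgA into milk, read 12.36, 12.93 and 12.38 at lactation, against 9.65 to 11.09 at pregnancy, and was 4.67-fold higher (2.22, SE 0.38). The chemokine gene Cxcl12 was 4.97-fold lower, with 1 of its other probe sets higher by 0.91, and Cxcl13, a chemokine of lymphoid follicles, 2.13-fold higher (1.09, SE 0.24, not called when all its probe sets were averaged, adjusted p = 0.303). Among 7 genes of lymph node stroma 3 were higher and 1 lower (median 0.63). Of 12 skeletal muscle genes 1 was higher (median 0.54), Myh1 by 0.99 (SE 0.20), but 7 were higher and 1 lower in the fit of the 8 CBA/CaH arrays alone, and 8 and 1 without the arrays that stood apart. None of 3 red blood cell genes was called (limma, median 0.10, and -0.15 after quantile normalization).

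Acute phase and involution genes were higher in 8 of 19 cases and lower in 5 (median 0.38), with lactation array 1 apart from the others. The median was -0.12 without that array, 1.24 without lactation array 2, 0.73 without pregnancy array 4 and 0.16 without pregnancy array 2. Saa1, serum amyloid A1, read 13.10, 8.88 and 9.85 at lactation, against 6.33, 6.76, 6.47, 6.83 and 5.42 at pregnancy (4.24, SE 0.75, adjusted p = 0.000306). Its relatives Saa2 (10.80, 6.03 and 7.66, against 4.48 to 4.81) and Saa3 (11.18, 9.04 and 8.93, against 5.96 to 7.38) were higher by 3.51 and 3.08. For all 3 the lactation array 1 was the highest, and the other lactation arrays were also above every pregnancy array. The orosomucoid genes Orm1 and Orm2 were higher by 4.27 (SE 0.80) and 4.93 (SE 0.47), and Il6ra, a receptor of interleukin 6, by 2.42 (SE 0.29). Haptoglobin (Hp), an acute phase protein that fat also makes, went the other way (-3.30, SE 0.67). It read 5.50, 5.45 and 4.62 at lactation, against 8.35, 6.42, 8.71, 9.49 and 9.51 at pregnancy, lowest on pregnancy array 2.

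Immediate early genes, which respond within minutes to growth factors and to handling of tissue, were lower in 8 of 18 cases and higher in 2 (median -0.77, and -1.21 without lactation array 1). With equal medians 9 were lower and none higher. Myc read 6.92, 6.93 and 6.73 at lactation, against 9.80, 9.45, 8.86, 9.54 and 9.03 at pregnancy (-2.47, SE 0.33), and Ier2 was 3.90-fold lower (-1.96, SE 0.23). The members called higher were Fosb (0.60, SE 0.18) and Egr3 (0.47, SE 0.14), neither of them without lactation array 2, with a dim Egr3 probe set at -2.59, so that the mean of the Egr3 probe sets was lower. Of 16 circadian clock genes 5 were lower and 3 higher (median -0.33), 2 and 3 after quantile normalization (median 0.26) and 7 and 1 with equal medians. Leaving out lactation array 2 left 2 lower and 1 higher, and the median was -0.17 without lactation array 1 and -0.19 without pregnancy array 5. Clock itself was 1.88-fold lower (-0.91, SE 0.25), but not called when all its probe sets were averaged (-0.25, adjusted p = 0.0633). The hour of collection is not given in the labels used here, so stage and hour cannot be told apart for these genes.

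Few changes were called different from those of QSi5. The difference of the stage change between the strains was called for 47 of 45037 probe sets (0.104%) and for 18 of 18193 genes (0.0989%). An unadjusted p under 0.05 (limma) was met by 2422 of the 45037 probe sets, close to the share that chance alone gives. The change of CBA/CaH lay above that of QSi5 in 10 of the 18 genes and below it in 8. Fhad1, a forkhead-associated domain gene, was among the 15 highest differences of CBA/CaH, reading 9.50, 10.13 and 10.95 at lactation, against 5.38, 6.47, 4.93, 4.81 and 4.74 at pregnancy. In QSi5 it read 5.07, 4.05 and 4.77 at lactation, against 4.25, 4.13, 3.82, 5.53 and 4.91 at pregnancy. The changes were 4.93 in CBA/CaH and 0.10 in QSi5, a difference of 4.82 (SE 0.63, adjusted p = 0.00520, and adjusted p = 0.346 with all 26 arrays in the fit).

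Coro2a, an actin-binding coronin, read 7.47, 7.39 and 7.29 at lactation, against 5.50, 5.32, 4.95, 5.04 and 5.06 at pregnancy in CBA/CaH. In QSi5 it read 6.89, 6.55 and 7.42 at lactation, against 8.83, 9.67, 8.84, 7.28 and 9.47 at pregnancy. The lactation arrays of the strains overlapped, while their pregnancy arrays did not (difference of changes 4.07, SE 0.54, adjusted p = 0.00584). The metallothionein genes Mt2 and Mt1, whose products bind zinc and copper, changed by 1.15 and 1.06 in CBA/CaH and by -4.48 and -1.77 in QSi5. Without lactation array 1 the Mt1 change in CBA/CaH was 0.65 and was not called (adjusted p = 0.0596). Mt2 read 12.31, 9.59 and 11.01 at lactation, against 9.45, 9.18, 10.17 and 9.30 on pregnancy arrays 1, 3, 4 and 5 in CBA/CaH, with pregnancy array 2 just below lactation array 3, so that its stages overlapped and its own change was not called (adjusted p = 0.0686). It was called under 4 alternatives, among them quantile normalization (1.67, adjusted p = 0.0127) and leaving out lactation array 2 (1.84, adjusted p = 0.00713). The difference of changes was 5.63 for Mt2 (SE 0.72, adjusted p = 0.00451) and 2.83 for Mt1 (SE 0.41, adjusted p = 0.0109), and neither was called once the arrays standing apart were left out (adjusted p = 0.105 for Mt2). Mt1 was not called under 3 of 18 alternatives, with an adjusted p of up to 0.209.

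In the other direction, Ccdc122, a coiled-coil gene, read 4.79, 5.17 and 4.71 at lactation and 7.45 to 8.15 at pregnancy in CBA/CaH, and 3.72 to 4.46 at both stages in QSi5 (difference of changes -2.98, SE 0.29, adjusted p = 0.000453). Cspg5, a chondroitin sulfate proteoglycan gene, read 6.33 to 6.44 at lactation and 7.34 to 8.64 at pregnancy in CBA/CaH, and 6.16 to 6.77 at both stages in QSi5 (-2.14, SE 0.32, adjusted p = 0.0114). In both genes the pregnant CBA/CaH mice stood apart from all other parental arrays. Pdxdc1 (-2.20) and Cyp7b1, an oxysterol hydroxylase (-1.65), were also called, but not under 4 and 9 of the 18 alternatives. Sequence differences between the strains under the probes were not tested.

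**Figure D5:**
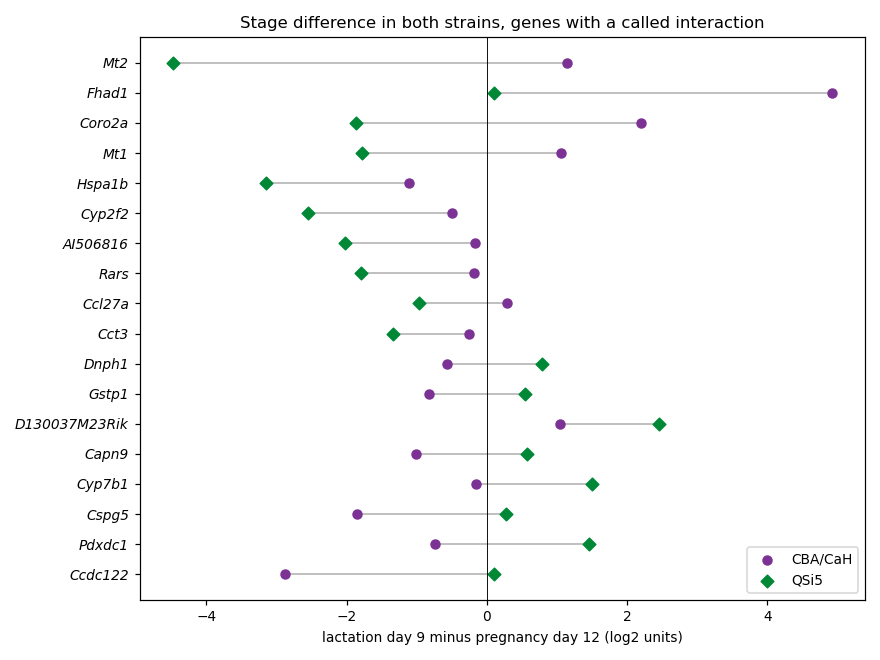
Difference between lactation and pregnancy (log2 units) in CBA/CaH (purple circles) and QSi5 (green diamonds) for the 18 genes whose change differed between the strains. Mt2 (1.15 in CBA/CaH and -4.48 in QSi5), Fhad1 (4.93 and 0.10) and Coro2a (2.21 and -1.87) lie furthest above in CBA/CaH, and Ccdc122 (-2.88 and 0.10) furthest below.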

How the data were processed

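Total RNA of 26 inguinal mammary glands was hybridised as biotin-labelled cRNA to Affymetrix whole-genome mouse arrays. The log2 expression values were made by the authors with RMA, per the submitters' processing notes, and used as deposited; its version is not given in the sources used here. Groups came from the sample titles. A model with 1 mean for each of the 4 parental groups was fitted to 16 arrays with limma 3.58.1 (R 4.3.3; lmFit, eBayes, two-sided, Benjamini-Hochberg over 45037 probe sets, adjusted p under 0.05), after a test on simulated data. SEs are those of the fit. The contrasts were lactation minus pregnancy in CBA/CaH and that change minus the QSi5 change. GEO's platform annotation gave 34945 probe sets 1 gene symbol, 932 several and 9160 none. Each gene was represented by its brightest probe set (mean of the 26 arrays). Tables and figures used Python 3.11.15, pandas 2.3.3 and matplotlib 3.10.9.

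Members and lists were chosen with earlier results of these data known. Named were the 15 highest and 15 lowest called genes without overlap, up to 6 called and 3 uncalled members of each list, 20 milk, hormone and cell marker genes whatever their result, and the 4 highest and 4 lowest strain differences. Members that moved against their list, and a few others beyond this rule, were named after their values were seen. Alternatives were other sets of arrays, quantile normalization, equal array medians, a minimum mean of 5, trended and robust variance and array weights. Others were the replicate block, the Gapdh 3' minus 5' value, leaving out each array or those standing apart, and the mean of a gene's probe sets. An array stood apart if a measure was over 1 log2 unit above the median of its group. The measures were Gapdh and the lists of brown fat, muscle and B cells. Low values were not flagged, such as the Gapdh value of 0.89 on CBA/CaH pregnancy array 4. Promoters are the 250 bases before the RefSeq start (GRCm38.p6).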

Additional observations from a re-analysis of the deposited data

Results flagged for a closer look

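Of the 18 genes whose stage change differed between CBA/CaH and QSi5 in the test of that difference itself, 8 are named (limma, given as the CBA/CaH change minus the QSi5 change). The differences were 5.63 for Mt2, 4.82 for Fhad1, 4.07 for Coro2a, 2.83 for Mt1, -1.65 for Cyp7b1, -2.14 for Cspg5, -2.20 for Pdxdc1 and -2.98 for Ccdc122.

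A single pregnancy array lay far from the other 4 in 13 of 190 genes tested for it by Dixon's criterion, which chance alone meets in about 1 in 20 groups. Pregnancy array 5 was the highest for 5 genes of lipid synthesis and oxidation and for the citric acid cycle gene Dlst. It read 14.04 for Fasn, against 12.28 to 12.70 on the others, and 11.58 for Elovl5, 11.76 for Acsl5, 12.03 for Acaa2, 12.61 for Acadvl and 11.36 for Dlst. The same array had the highest brown adipocyte markers (median 2.11 from the mean of the 26 arrays), whose part in these values was not tested. It was the lowest for Cspg5, at 7.34, against 8.29 to 8.64.

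Pregnancy array 2 was the lowest for the fat cell genes Pck1, at 5.77 against 9.62 to 10.82, and Cidec, at 5.71 against 9.15 to 10.44, and for the luminal gene Cited1, at 6.88 against 8.15 to 8.36. It was the highest for Fabp3, at 13.31 against 11.43 to 11.80, and for the Golgi calcium pump Atp2c2, at 8.62 against 6.74 to 7.18. Its white adipocyte markers had a median of -1.09, where the other pregnancy arrays had 0.84 to 1.86. Pregnancy array 4 was the lowest for Csn1s2a, at 14.12 against 14.52 to 14.66.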

How the results depend on the processing

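The count of probe sets higher at lactation (14546) was 9095 with array medians set equal and 6155 among probe sets with a mean of at least 5. Leaving out 1 array at a time gave 11596 to 14447 higher and 7632 to 9319 lower probe sets. The labels do not say whether replicate numbers pair arrays across the stages. Deviations of same-numbered arrays correlated at 0.035, 0.019 and 0.124, within -0.162 to 0.124 over all pairs. So few pairs cannot settle it. The replicate block gave 13034 higher and 8799 lower. The strain difference (47 probe sets) gave 79 with all 26 arrays, 152 with array weights, 84 with the Gapdh 3' minus 5' value as a covariate, 32 with the replicate block and 29 to 45 without 1 array, 30 without lactation array 2 and 29 without lactation array 3. Of 176 called genes named here, 151 kept their call under every alternative run. Averaging all probe sets of a gene turned Prim2 to -0.88 and Egr3 to -1.06. That setting left no replication or mitosis gene higher, and also ended the calls of Orc1, Foxm1, Tpx2, Socs3 and Myh1. Glycam1 was not called with equal medians or the replicate block (adjusted p = 0.0581 and 0.0546), and Pdxdc1 not without lactation array 3. Counts of list members moved by over 1.5 times in 175 of 1520 comparisons with an alternative. The medians near 0 of the lists for lactose and glucose, metals and water, coats and Golgi, Wnt, and T and NK cells changed sign when single arrays were left out. The cause of these changes was not tested. With 3 lactation arrays, the number of arrays limits the precision, and signals near the top or the dim end of the scale understate differences.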
